A study of Mus musculus with 9 samples.

Results

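The 10 genes Foxo1, Cdh1, Sirt1, Onecut2, Hes1, Rest, Socs5, Nfkb1, Lifr and Soat1, reported as targets of the microRNA miR-9-5p in other systems, were followed in mouse liver. They were chosen by symbol, and all 10 are among the 55414 Ensembl features of the expression table. The livers came from wild-type-labelled NSG mice, an immunodeficient strain that lacks mature lymphocytes. Extracellular vesicles (EVs) or phosphate-buffered saline (PBS) had been injected into the tail vein for 5 weeks. There were 3 libraries from livers that received MDA-MB-231 EVs (from a human line of triple-negative breast carcinoma), 3 with MCF-10A EVs (from a human mammary epithelial line that does not form tumours) and 3 with PBS. A comparison is written with the group on top first, so that MDA-MB-231 over PBS means MDA-MB-231 EV livers relative to PBS livers. Age, sex and vesicle dose are not stated, and nothing in the labels says that the 3 libraries of a group came from separate mice. The series title names cancer-cell miR-9-5p and cholesterol homeostasis as its subject.

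A microRNA guides an Argonaute protein to messages that pair with its seed, bases 2 to 8 from its 5′ end. Pairing in the 3′ untranslated region (UTR) typically lowers the stability or translation of the message. miR-9-5p is best known from the nervous system, where it forms regulatory loops with REST and HES1, and from breast cancer cells, where it represses the adhesion gene CDH1. SOCS5 was reported as its target in endothelial cells that took up tumour vesicles, ONECUT2 and SIRT1 in insulin-secreting cells, NFKB1 in human monocytes and neutrophils and LIFR in breast cancer. The libraries measure messenger RNA only: neither mature miR-9-5p nor protein was measured.

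The mature sequence is shown with the seed in capitals, because every match counted here derives from it. It is given 5′ to 3′ from RefSeq (GRCm38.p6), which places the same mature sequence in Mir9-1, Mir9-2 and Mir9-3 on chromosomes 3, 13 and 7, and no other mature microRNA of that table carries this seed.
mmu-miR-9-5p: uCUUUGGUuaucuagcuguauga

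An 8-mer site is the letters ACCAAAGA, the match to the seed followed by A. A 7-mer is either ACCAAAG, the match to the whole seed, or CCAAAGA, the match to bases 2 to 7 followed by A. An 8-mer holds both 7-mers. The sense strand of the longest protein-coding 3′ UTR of each gene in GENCODE M21 (GRCm38) was searched. This build is not the one named for the authors' files, GRCm39. The 8-mer was present in 5 of the 10 genes, against 4.43% of 11136 tested genes with an annotated 3′ UTR. The full seed match was present in 7 of 10, against 13.5%. Every one of the 10 held a 7-mer of either kind, against 22.2%. The 3′ UTRs of the 10 were long, with a median of 3022 bases against 1092 bases. Among the 1581 tested genes with a 3′ UTR at least as long as that median, 12.3% held an 8-mer, 34.7% the full seed match and 54.2% either 7-mer. Since the genes were listed as reported targets, and site matches are one way targets are proposed, these shares describe the list and were not tested.

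Onecut2, a homeodomain factor of liver and pancreas development, held 14 full seed matches, 9 of them 8-mers, in a 3′ UTR of 14356 bases. No other of the 11136 genes held as many: Pou2f1, an octamer-binding factor, followed with 8 and Zbtb20, a zinc finger repressor abundant in liver, with 6 in 23858 bases. These 2 genes were looked up after the counts were seen. Hes1 had the shortest 3′ UTR, 368 bases, with a single CCAAAGA. Sites of 9 genes are printed with 14 bases before each, to show the longest kind of match found in each gene; capitals mark the match. Rest and Lifr each hold 1 further CCAAAGA, not printed.
Cdh1 8-mer: actggagtgccaccACCAAAGAcagagga
Sirt1 8-mer: aacagcttatctagACCAAAGAatggtat
Lifr 8-mer: aagccagagccaacACCAAAGAgtttctg
Socs5 8-mer: gatgcagacctttaACCAAAGActtgttc
Socs5 7-mer: cctgaggaacatatACCAAAGtgtctgag
Rest 7-mer: cttttctgaggcaaACCAAAGgtatattt
Nfkb1 7-mer: cccacactgtgtaaACCAAAGccctgaca
Foxo1 7-mer with A: aactgaggagcagtCCAAAGAtgcccttc
Hes1 7-mer with A: ttttttatgtgatgCCAAAGAtgtttgaa
Soat1 7-mer with A, first: aaaaaccctattttCCAAAGAtaatcttg
Soat1 7-mer with A, second: ttcaaaccttctgcCCAAAGAaatgagcc

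All lie in 3′ UTR exons (GRCm38). The 8-mers are at chr8:106669408-106669415 on the plus strand in Cdh1, chr10:63320284-63320291 on the minus strand in Sirt1 and chr15:7193016-7193023 on the plus strand in Lifr. That of Socs5 is at chr17:87137064-87137071 on the plus strand, with its 7-mer downstream at chr17:87137154-87137160. The other printed 7-mers are at chr5:77286176-77286182 (plus) in Rest, chr3:135585319-135585325 (minus) in Nfkb1, chr3:52347048-52347054 (plus) in Foxo1 and chr16:30067712-30067718 (plus) in Hes1. Those of Soat1 are at chr1:156430577-156430583 and chr1:156429625-156429631 (minus). Foxo1, Hes1 and Soat1 hold no full seed match in these 3′ UTRs.

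**Figure D1:**
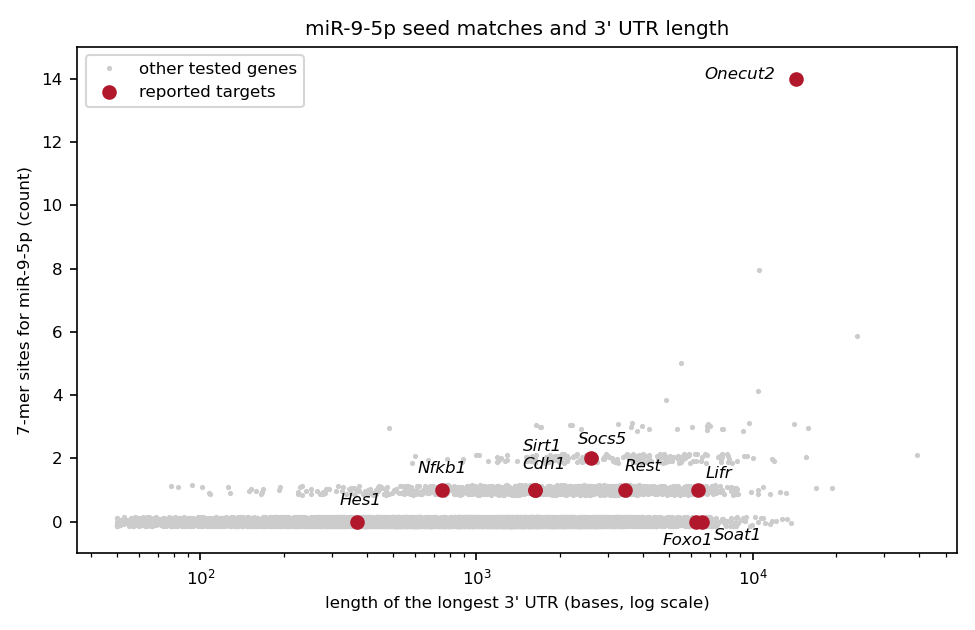
Each point is a tested gene, with the length of its longest 3′ UTR in bases (log axis) against the number of full 7-mer seed matches for miR-9-5p; grey points are spread slightly in height, and the 10 reported targets are in red. Onecut2 stands alone with 14 matches, 6 other reported targets have 1 or 2, and Foxo1, Hes1 and Soat1 have 0.

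Levels are given in TPM, a relative abundance that is already divided by transcript length and by library total. Read depth cannot be recovered from TPM and is unknown. Some libraries stood apart. Mitochondrially encoded genes held 26.3% of TPM in PBS 1 and between 4.96% and 12.1% in the other 8 libraries. MDA-MB-231 EV 3 had the highest share of loci assembled from reads, 5.70%. MDA-MB-231 EV 2 had the fewest Ensembl features above 0, 17403 where the others had 18241 to 20070. The deviations of MDA-MB-231 EV 3 and PBS 1 from their group means ran together (r = 0.625 across 12860 genes, which are not independent replicates). The tissue label was checked on hepatocyte genes: the summed level of 6 hepatocyte markers was 37680 to 101500 TPM in MDA-MB-231 EV livers, 43580 to 65140 TPM in MCF-10A EV livers and 37470 to 91930 TPM in PBS livers. The 6 lymphocyte markers together reached at most 1.08 TPM in any library, with 1 of 6 at 0 throughout.

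By mean TPM over the 9 libraries the order was Lifr (41.1), Nfkb1 (12.3), Onecut2 (7.91), Hes1 (7.59), Cdh1 (5.97), Foxo1 (4.31), Sirt1 (2.66), Socs5 (1.93), Soat1 (1.71) and Rest (1.40). The ranges over libraries of each pair of neighbours in this order overlapped. Lifr exceeded Nfkb1 in 7 of 9 libraries. All 10 had a mean of at least 1 TPM, the level at which a gene was tested. In bulk liver, fewer cells of a type and less RNA per cell cannot be told apart.

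None of the 10 genes passed in any comparison, tested with limma on log2(TPM + 1) with the Benjamini-Hochberg adjustment over 12860 genes. In MDA-MB-231 over PBS 0 of 10 passed, where 0.0% of all tested genes did and 199 had an unadjusted p under 0.05. Without PBS 1, 24 genes passed in that comparison, and without MDA-MB-231 EV 3, 5 did, with 0 of the 10 among them. In MDA-MB-231 over MCF-10A 0 of 10 passed, beside 0.218% of all genes, and in MCF-10A over PBS 0 of 10, beside 0.194%. Every one of the 30 limma adjusted p values was 1.0, and 0 of the 10 genes had an unadjusted p under 0.05 in any comparison. The smallest unadjusted limma p values were 0.233 for Hes1, 0.27 for Lifr and 0.21 for Lifr in that order of comparisons. The 95% intervals of the log2 changes spanned from 1.70 units for Sirt1 to 3.21 units for Nfkb1. A log2 change of 1 in one direction or the other lies within 27 of the 30 intervals.

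The signs of these changes were set beside those of all tested genes. In MDA-MB-231 over PBS 7 of 10 log2 changes were above 0, as were 69.7% of all tested genes, with medians of 0.26 for the 10 and 0.21 for all. Against MCF-10A EVs, 4 of 10 were above 0 after MDA-MB-231 EVs, beside 65.1% of all genes, with medians of -0.08 and 0.17. In MCF-10A over PBS 7 of 10 were above 0, beside 56.8%, with medians of 0.27 and 0.07. Quantile normalization brought the median of all genes to 0.04 in MDA-MB-231 over PBS and to 0.00 in MDA-MB-231 over MCF-10A, and the medians of the 10 to 0.06 and -0.21. With mitochondrial genes left out of the scaling, the median in MDA-MB-231 over PBS was 0.10 for all genes and 0.15 for the 10. The comparisons share groups, so their values are not independent. The medians turned on single libraries. Leaving out MDA-MB-231 EV 1 gave a median of -0.03 in MDA-MB-231 over PBS and -0.26 in MDA-MB-231 over MCF-10A. Leaving out MDA-MB-231 EV 2 gave 0.48 in the first, and leaving out MCF-10A EV 1 gave 0.30 in the second. In MCF-10A over PBS it was 0.03 when MCF-10A EV 1 was left out and 0.35 when MCF-10A EV 2 was.

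**Figure D2:**
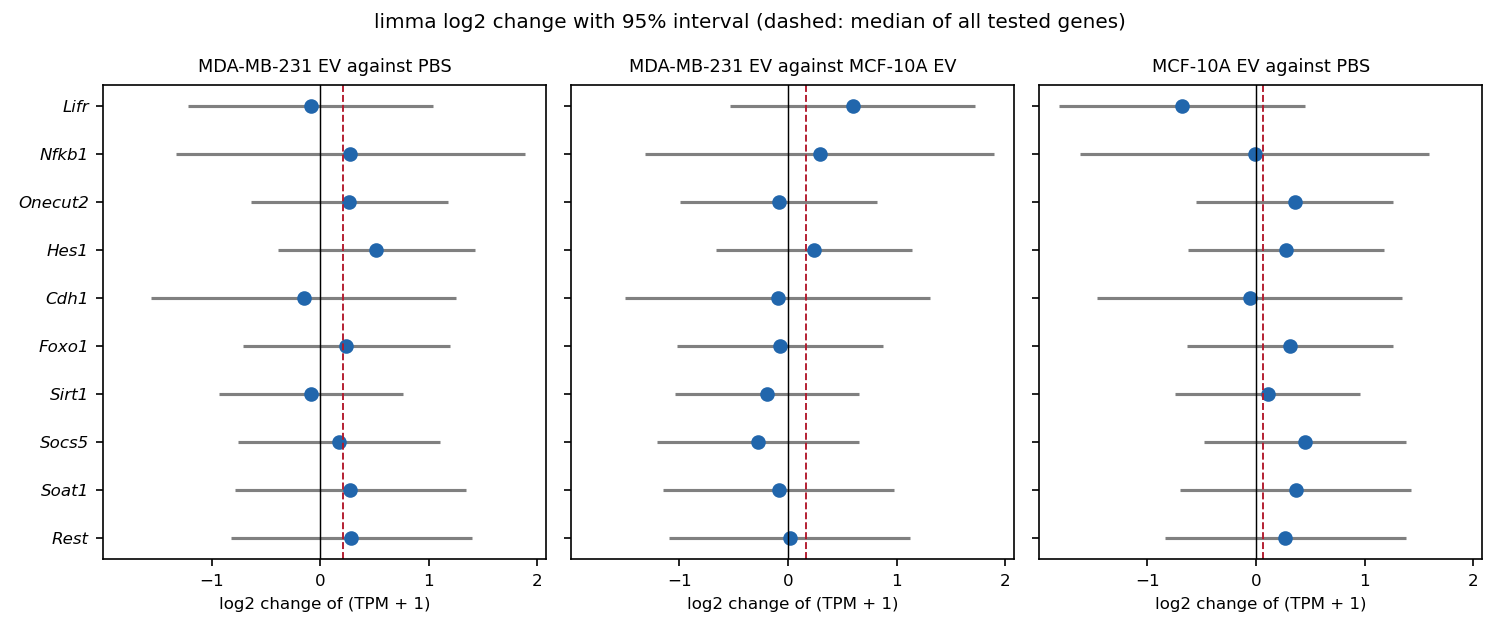
Points are limma log2 changes of (TPM + 1) for the 10 genes, lines their 95% intervals, and the dashed line the median of all tested genes, for MDA-MB-231 over PBS, MDA-MB-231 over MCF-10A and MCF-10A over PBS. Every interval includes 0; the lowest point is Lifr at -0.68 in MCF-10A over PBS and the highest Lifr at 0.59 in MDA-MB-231 over MCF-10A.

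Lifr, the receptor subunit that with gp130 binds leukaemia inhibitory factor and passes its signal to STAT3, was the most abundant of the 10. It was at 38.1, 89.4 and 21.7 TPM in MDA-MB-231 EV 1 to 3, 19.9, 31.7 and 33.3 TPM in MCF-10A EV 1 to 3, and 36.9, 44.8 and 54.3 TPM in PBS 1 to 3. All MCF-10A EV libraries lay below all PBS libraries, whereas the MDA-MB-231 EV libraries spread over and beyond both. Means were 28.3 ± 7.30 TPM after MCF-10A EVs and 45.4 ± 8.71 TPM after PBS (SD, n = 3 each), a log2 change of -0.68 ± 0.51 (SE; 95% interval -1.81 to 0.45). Lifr was the 1 gene of the 10 whose groups did not overlap in MCF-10A over PBS, beside 7.69% of all tested genes. In MDA-MB-231 over PBS 0 of 10 did so, beside 6.03%, and in MDA-MB-231 over MCF-10A 0 of 10, beside 6.53%. MDA-MB-231 EVs gave 49.7 ± 35.3 TPM, with log2 changes of -0.09 ± 0.51 against PBS and 0.59 ± 0.51 against MCF-10A EVs. The profiles closest to that of Lifr over the 9 libraries belonged to Cyp2d40 and Cyp7b1, at root mean square distances of 0.24 and 0.28 log2 units between centred profiles, where Lifr itself varied by 0.61.

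Nfkb1 encodes p105, the precursor of the NF-kB subunit p50. It was at 11.3, 4.33 and 29.5 TPM in MDA-MB-231 EV 1 to 3, 21.8, 4.41 and 7.87 TPM in MCF-10A EV 1 to 3, and 18.8, 6.22 and 6.84 TPM in PBS 1 to 3. A single library in each group was high, and the groups overlapped fully. Means were 15.03 ± 13.0, 11.4 ± 9.19 and 10.6 ± 7.09 TPM after MDA-MB-231 EVs, MCF-10A EVs and PBS (SD, n = 3 each). The log2 change was 0.28 ± 0.72 in MDA-MB-231 over PBS, 0.29 ± 0.72 in MDA-MB-231 over MCF-10A and -0.01 ± 0.72 in MCF-10A over PBS (0.02 with the TPM of Ensembl features rescaled). Without PBS 1 and MDA-MB-231 EV 3 together, 2 of the 3 high libraries, the last was 0.45 and the middle one -0.35. Within groups Nfkb1 varied more than 84.8% of tested genes, with an SD of 1.06 log2 units against a median of 0.63.

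The libraries with the highest Nfkb1 in their group, MDA-MB-231 EV 3, MCF-10A EV 1 and PBS 1, were also those with the lowest Lifr in their group. In MDA-MB-231 EV 3 and MCF-10A EV 1 Nfkb1 exceeded Lifr, as in no other library. This pairing was noticed after the values were seen and was not tested. The second NF-kB precursor gene, Nfkb2, was highest in the same library of each group, at 9.45 TPM in MDA-MB-231 EV 3, 12.1 TPM in MCF-10A EV 1 and 4.95 TPM in PBS 1. Relb, which pairs with the Nfkb2 product, was likewise highest there, at 4.76, 7.74 and 2.16 TPM in that order. Nfkb2 and Relb lie outside the rule for naming list genes, and the other subunit genes did not follow throughout. Rela was highest of its group in MCF-10A EV 1 (22.0 TPM) and PBS 1 (11.3 TPM). In MDA-MB-231 EV 3 it was at 16.9 TPM, below 19.3 TPM in MDA-MB-231 EV 1. Rel was highest of its group in MCF-10A EV 1 (1.73 TPM) but lowest in MDA-MB-231 EV 3 (0.27 TPM) and PBS 1 (0.19 TPM). Levels of myeloid markers in MDA-MB-231 EV 3, MCF-10A EV 1 and PBS 1 differed from marker to marker. The summed level of 6 neutrophil markers was 5060 TPM in MCF-10A EV 1 and 19.1 to 208 TPM in the other 8 libraries, and that of 7 Kupffer cell markers 1358 TPM against 191 to 483 TPM. The Kupffer sum in MCF-10A EV 1 was mostly Marco (804 TPM) and Cd5l (422 TPM), each at its highest of all libraries. The Kupffer cell markers Adgre1, Csf1r and Timd4 were also at their highest in MCF-10A EV 1, Timd4 by a narrow margin. Clec4f, another Kupffer cell marker, was instead at 0.61 TPM there and at 96.5 to 243 TPM in the other 8. Vsig4, the last of the list, was at 18.9 TPM in MCF-10A EV 1, within its range elsewhere. The neutrophil surface marker Ly6g was at 23.4 TPM in MDA-MB-231 EV 3, 13.4 TPM in MCF-10A EV 1 and 15.9 TPM in PBS 1, and at most 5.97 TPM in the other 6 libraries. The other neutrophil markers were also highest of their group in MDA-MB-231 EV 3 and MCF-10A EV 1, but not in PBS 1. There S100a8 was at 3.17 TPM, S100a9 at 12.0 TPM, Ngp at 0.35 TPM and Camp and Mpo at 0 TPM, each lower than in PBS 2. These single markers were named after their values were seen. The 6 monocyte and dendritic cell markers summed to 18.8 TPM in MCF-10A EV 1 and to 1.71 to 5.69 TPM elsewhere. Of the neutrophil, Kupffer cell and monocyte lists, 0 held a marker at 0 in every library. In PBS 1 the sums were 31.5 TPM for neutrophils and 235 TPM for Kupffer cells, and in MDA-MB-231 EV 3 they were 208 and 450 TPM. The part of these cells in the Nfkb1 level was not tested. The profiles closest to Nfkb1 were those of the actin regulator Coro7 and of Arrb2, a beta-arrestin, at distances of 0.22 and 0.23 log2 units where Nfkb1 varied by 0.87.

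**Figure D3:**
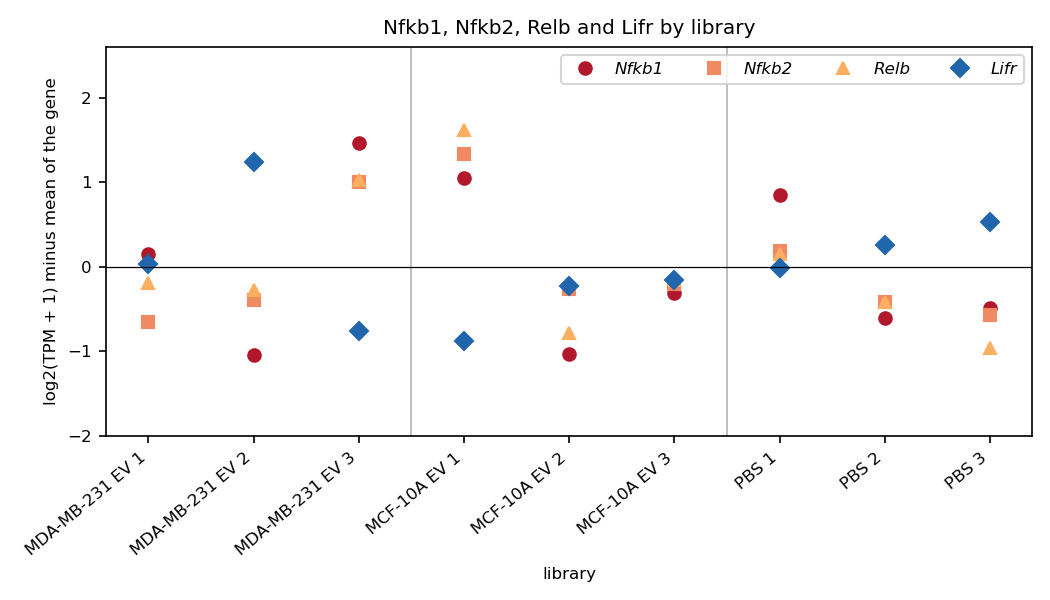
Deviation of log2(TPM + 1) from the mean of each gene over the 9 libraries, for Nfkb1, Nfkb2, Relb and Lifr, with vertical lines between the groups MDA-MB-231 EV, MCF-10A EV and PBS. In MDA-MB-231 EV 3, MCF-10A EV 1 and PBS 1 the 3 NF-kB genes shown are at their highest within the group and Lifr is at its lowest. Rela and Rel, not shown, did not follow this throughout.

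Socs5, an inhibitor of cytokine receptor signalling, was at 2.76, 0.79 and 2.19 TPM in MDA-MB-231 EV 1 to 3, 2.98, 1.66 and 2.62 TPM in MCF-10A EV 1 to 3, and 1.71, 1.22 and 1.48 TPM in PBS 1 to 3. All but 1 MCF-10A EV library and all but 1 MDA-MB-231 EV library lay above every PBS library. Its log2 change was 0.18 ± 0.42 in MDA-MB-231 over PBS, -0.28 ± 0.42 in MDA-MB-231 over MCF-10A and 0.45 ± 0.42 in MCF-10A over PBS. Of 16 genes around Lifr and Socs5 (gp130, JAK, STAT3 and other SOCS genes), 13 were tested; 12 were above 0 in MDA-MB-231 over PBS with a median of 0.54 (9 and 0.32 under quantile normalization). Cish, a STAT5-induced SOCS family member, was at 8.0, 9.10 and 9.63 TPM in MDA-MB-231 EV 1 to 3, 6.43, 4.74 and 3.53 TPM in MCF-10A EV 1 to 3, and 4.52, 0.54 and 3.30 TPM in PBS 1 to 3. All MDA-MB-231 EV libraries were above all others, yet its log2 change of 1.58 ± 0.49 against PBS had a limma adjusted p of 1.0 (unadjusted 0.00856). Socs2, another STAT5-induced inhibitor, gave 1.76 ± 0.81, with 176 TPM in MDA-MB-231 EV 3 against 20.3 and 40.3 TPM in the other libraries of its group. Il6ra, a receptor subunit for interleukin 6, gave 0.99 ± 0.66.

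Of 16 NF-kB pathway genes 15 were tested. Values above 0 were found for 14 in MDA-MB-231 over PBS (median 0.45; 11 under quantile normalization, median 0.32) and for 15 of 15 in MCF-10A over PBS (median 0.55). In MDA-MB-231 over MCF-10A 4 of 15 were above 0 (median -0.29, or -0.48 under quantile normalization). Myeloid markers were set beside this list. All 7 Kupffer cell markers were above 0 in MDA-MB-231 over PBS (median 0.78), with sums of 450 to 483 TPM in MDA-MB-231 EV livers and 199 to 398 TPM in PBS livers. In MCF-10A over PBS 5 of 6 neutrophil markers were above 0 (median 3.05). Their sum was 5060, 28.1 and 180 TPM in MCF-10A EV 1 to 3 and 19.1 to 77.0 TPM in PBS livers, so 1 library weighed most. The part of these markers in the NF-kB values was not tested. The NF-kB subunit gene Rela was at 19.3, 14.01 and 16.9 TPM in MDA-MB-231 EV 1 to 3, above 11.3, 10.2 and 9.53 TPM in PBS 1 to 3, with a log2 change of 0.64 ± 0.40. Ikbkg, the regulatory subunit of the kinase complex, gave 1.00 ± 0.46 and the neutrophil chemokine Cxcl1 1.01 ± 0.74 in the same comparison. Summed over the 16 genes, the level was 123 to 259 TPM after MDA-MB-231 EVs, 133 to 419 TPM after MCF-10A EVs and 130 to 163 TPM after PBS, with the maximum in MCF-10A EV 1.

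Foxo1 encodes the insulin-restrained transcription factor that drives gluconeogenic genes in fasting liver. It was at 7.29, 2.67 and 3.90 TPM in MDA-MB-231 EV 1 to 3, 4.94, 3.16 and 6.01 TPM in MCF-10A EV 1 to 3, and 2.90, 5.18 and 2.74 TPM in PBS 1 to 3. The groups overlapped, and the log2 change was 0.24 ± 0.43 in MDA-MB-231 over PBS (95% interval -0.71 to 1.19). It was -0.07 ± 0.43 in MDA-MB-231 over MCF-10A and 0.31 ± 0.43 in MCF-10A over PBS. Of 10 tested FOXO1 target genes 6 were above 0 in MDA-MB-231 over PBS (median 0.41, or 0.33 under quantile normalization). Mttp, which loads lipid onto apolipoprotein B, gave 0.97 ± 0.60, the insulin receptor gene Insr 0.75 ± 0.61 and the cyclin gene Ccng2 0.53 ± 0.46. Among the 4 below 0 were the gluconeogenic gene Pck1 at -0.27 ± 0.49, Apoc3 at -0.39 ± 0.64 and Pdk4 at -0.10 ± 0.63.

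Sirt1, a NAD-dependent deacetylase of histones and transcription factors, was the steadiest of the 10 within groups on the log2(TPM + 1) scale, with an SD of 0.31 units. That scale shrinks the spread of low genes. It was at 3.65, 1.35 and 2.51 TPM in MDA-MB-231 EV 1 to 3, 2.97, 2.47 and 3.16 TPM in MCF-10A EV 1 to 3, and 3.12, 2.30 and 2.38 TPM in PBS 1 to 3. The groups overlapped, with the highest and the lowest value both after MDA-MB-231 EVs. Log2 changes were -0.09 ± 0.38 in MDA-MB-231 over PBS (95% interval -0.94 to 0.76), -0.19 ± 0.38 in MDA-MB-231 over MCF-10A and 0.11 ± 0.38 in MCF-10A over PBS. All 11 other sirtuin and NAD genes were above 0 in MDA-MB-231 over PBS, with a median of 0.23 beside the 0.21 of all genes, but 7 of 11 under quantile normalization, with a median of 0.02. Sirt3, the mitochondrial sirtuin, was at 118, 60.0 and 124 TPM in MDA-MB-231 EV 1 to 3 and 65.8, 49.1 and 38.0 TPM in PBS 1 to 3, a log2 change of 0.94 ± 0.41 (limma adjusted p = 1.0). Nampt, the rate-limiting enzyme of NAD salvage, gave 0.33 ± 0.41 and the NAD-consuming Parp1 0.26 ± 0.37.

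Onecut2, the gene with the most seed matches, was at 6.01, 7.20 and 11.5 TPM in MDA-MB-231 EV 1 to 3, 5.40, 9.24 and 12.2 TPM in MCF-10A EV 1 to 3, and 8.44, 5.05 and 6.19 TPM in PBS 1 to 3. The 3 highest values followed vesicles of either kind, and the groups overlapped. Its log2 change was 0.27 ± 0.41 in MDA-MB-231 over PBS (95% interval -0.64 to 1.18), -0.09 ± 0.41 in MDA-MB-231 over MCF-10A and 0.36 ± 0.41 in MCF-10A over PBS. The closest profiles were those of the RNA-binding protein gene Larp4b and of Tmem102, at 0.14 and 0.17 log2 units where Onecut2 varied by 0.39. Its paralog Onecut1 (HNF6) was lower, at 3.02, 3.81 and 1.04 TPM in MDA-MB-231 EV 1 to 3, 0.47, 0.05 and 0.17 TPM in MCF-10A EV 1 to 3, and 1.03, 0.13 and 0.58 TPM in PBS 1 to 3. Every MDA-MB-231 EV library was above every other library, by a narrow margin between MDA-MB-231 EV 3 and PBS 1. The log2 change was 1.15 ± 0.49 against PBS (limma adjusted p = 1.0, unadjusted 0.0397) and 1.48 ± 0.49 against MCF-10A EVs (limma adjusted p = 0.932, unadjusted 0.012). All 8 tested partners and hepatic factors of this list were above 0 in both comparisons, with medians of 0.58 and 0.46; under quantile normalization 6 of 8 were in the first (median 0.33) and 8 of 8 in the second (median 0.19). Foxa1, a regulator of hepatocyte genes, gave 0.69 ± 0.36 in MDA-MB-231 over PBS.

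Hes1, the repressor switched on by Notch, had the largest log2 change of the 10 in MDA-MB-231 over PBS. It was at 10.0, 4.74 and 13.9 TPM in MDA-MB-231 EV 1 to 3, 7.99, 8.30 and 5.84 TPM in MCF-10A EV 1 to 3, and 5.36, 6.10 and 6.11 TPM in PBS 1 to 3. The PBS libraries lay close together, and the MDA-MB-231 EV libraries lay both below and above them. The mean was 9.54 ± 4.57 TPM in MDA-MB-231 EV livers and 5.86 ± 0.43 TPM in PBS livers (SD, n = 3 each), a log2 change of 0.52 ± 0.41 (95% interval -0.39 to 1.42). The log2 change was 0.24 ± 0.41 in MDA-MB-231 over MCF-10A and 0.28 ± 0.41 in MCF-10A over PBS. Ndufaf7 and Dguok, mitochondrial protein genes, had the profiles closest to that of Hes1, at 0.19 and 0.20 log2 units where Hes1 varied by 0.41. Of 14 Notch pathway genes 7 reached the tested level, 6 of them above 0 in MDA-MB-231 over PBS (median 0.25, or 0.11 under quantile normalization). The receptor gene Notch2 gave 0.46 ± 0.53, Rbpj, the DNA-binding partner of Notch, 0.32 ± 0.46, and the ligand gene Dll4 0.28 ± 0.41.

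Rest, the repressor of neuronal genes outside the nervous system, was the lowest of the 10. It was at 3.52, 0.91 and 0.66 TPM in MDA-MB-231 EV 1 to 3, 2.61, 1.00 and 0.92 TPM in MCF-10A EV 1 to 3, and 0.76, 1.07 and 1.17 TPM in PBS 1 to 3. Replicate 1 of each vesicle group was above 2 TPM and the other 7 libraries were at or below 1.17 TPM. Log2 changes were 0.29 ± 0.50 in MDA-MB-231 over PBS, 0.02 ± 0.50 in MDA-MB-231 over MCF-10A (-0.09 under quantile normalization) and 0.27 ± 0.50 in MCF-10A over PBS. The 10 neuronal genes known to be repressed by REST together held 0.57 to 3.72 TPM after MDA-MB-231 EVs, 1.94 to 4.71 TPM after MCF-10A EVs and 0.48 to 1.71 TPM after PBS. None of them reached the tested level, and 1 was at 0 in every library. Single genes made up most of the higher sums. Celsr3 was at 2.55 TPM in MDA-MB-231 EV 3, 4.12 TPM in MCF-10A EV 2 and 1.46 TPM in MCF-10A EV 3. It was at most 0.39 TPM in PBS livers. In MCF-10A EV 1 most of the sum was Syp, at 1.56 TPM, against 0.41 to 1.03 TPM in PBS livers. Syp was at 0.46 and 0.43 TPM in MCF-10A EV 2 and 3. Both genes were singled out after their values were seen. Of 7 tested REST corepressor genes 5 were above 0 in MDA-MB-231 over PBS (median 0.24), and 4 under quantile normalization (median 0.03). The demethylase gene Kdm1a gave 0.69 ± 0.45 and the scaffold gene Sin3a -0.90 ± 0.73.

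Cdh1 encodes E-cadherin, the adhesion protein of epithelial cells, in liver of bile duct cells and periportal hepatocytes. It was at 9.03, 4.12 and 2.71 TPM in MDA-MB-231 EV 1 to 3, 14.8, 3.75 and 2.08 TPM in MCF-10A EV 1 to 3, and 5.75, 3.16 and 8.31 TPM in PBS 1 to 3. The values spanned 7.14-fold within the MCF-10A EV group alone, and the groups overlapped. Log2 changes were -0.15 ± 0.63 in MDA-MB-231 over PBS (95% interval -1.56 to 1.25), -0.09 ± 0.63 in MDA-MB-231 over MCF-10A and -0.06 ± 0.63 in MCF-10A over PBS. The first was 0.20 without PBS 1 and MDA-MB-231 EV 3. The bile duct keratin gene Krt19, singled out after its values were seen, was at 0.24 TPM in MCF-10A EV 1, the library with the most Cdh1, and at 1.13 to 5.59 TPM in the other 8. Other cholangiocyte markers did not follow Krt19. Sox9 was at its highest in MCF-10A EV 1, at 1.34 TPM against 0.36 to 0.95 TPM in the other 8, and so was Spp1. Krt7 (0.39 TPM), Epcam (0.45 TPM) and Cftr (0.03 TPM) were within their ranges elsewhere. The summed level of 6 cholangiocyte markers was 26.0 to 45.0 TPM after MDA-MB-231 EVs, 64.2 to 127 TPM after MCF-10A EVs and 24.0 to 123 TPM after PBS. Spp1, which other liver cells also express, made up most of it, with 125 of the 127 TPM in MCF-10A EV 1; their part in the Cdh1 level was not tested. The closest profiles to Cdh1, those of Krcc1 and Shtn1, were 0.34 and 0.35 log2 units away where Cdh1 varied by 0.73. Of 12 tested genes of cadherin junctions and their repressors 7 were above 0 in MDA-MB-231 over PBS (median 0.07), and 5 under quantile normalization (median -0.17). Ocln, Tjp1 and Jup, which build tight and adherens junctions, gave 0.68 ± 0.62, 0.51 ± 0.47 and 0.45 ± 0.38.

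Soat1, which esterifies free cholesterol for storage, ties the list to the sterol question of the study. It was at 1.80, 0.95 and 2.54 TPM in MDA-MB-231 EV 1 to 3, 4.0, 1.01 and 1.30 TPM in MCF-10A EV 1 to 3, and 1.31, 1.73 and 0.72 TPM in PBS 1 to 3. The groups overlapped, and the highest value belonged to MCF-10A EV 1. Log2 changes were 0.28 ± 0.48 in MDA-MB-231 over PBS (95% interval -0.79 to 1.34), -0.09 ± 0.48 in MDA-MB-231 over MCF-10A and 0.36 ± 0.48 in MCF-10A over PBS. Soat2, the paralog of hepatocytes and intestine, was higher than Soat1 in every library, at 50.4, 14.8 and 83.1 TPM in MDA-MB-231 EV 1 to 3, 17.3, 13.4 and 16.9 TPM in MCF-10A EV 1 to 3, and 37.2, 14.8 and 13.4 TPM in PBS 1 to 3. All 9 genes of cholesterol ester turnover were above 0 in MDA-MB-231 over PBS (median 0.71) and against MCF-10A EVs (median 0.70), with medians of 0.44 and 0.38 under quantile normalization, and 4 of 9 were in MCF-10A over PBS (median -0.02, or 0.02 with the TPM of Ensembl features rescaled). Soat2 gave 0.99 ± 0.62 in MDA-MB-231 over PBS. Scarb1, the HDL receptor, gave 0.99 ± 0.63, and Lcat, which esterifies cholesterol in plasma, 0.71 ± 0.36; for both, every MDA-MB-231 EV library was above every PBS library. Their limma adjusted p was 1.0.

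**Figure D4:**
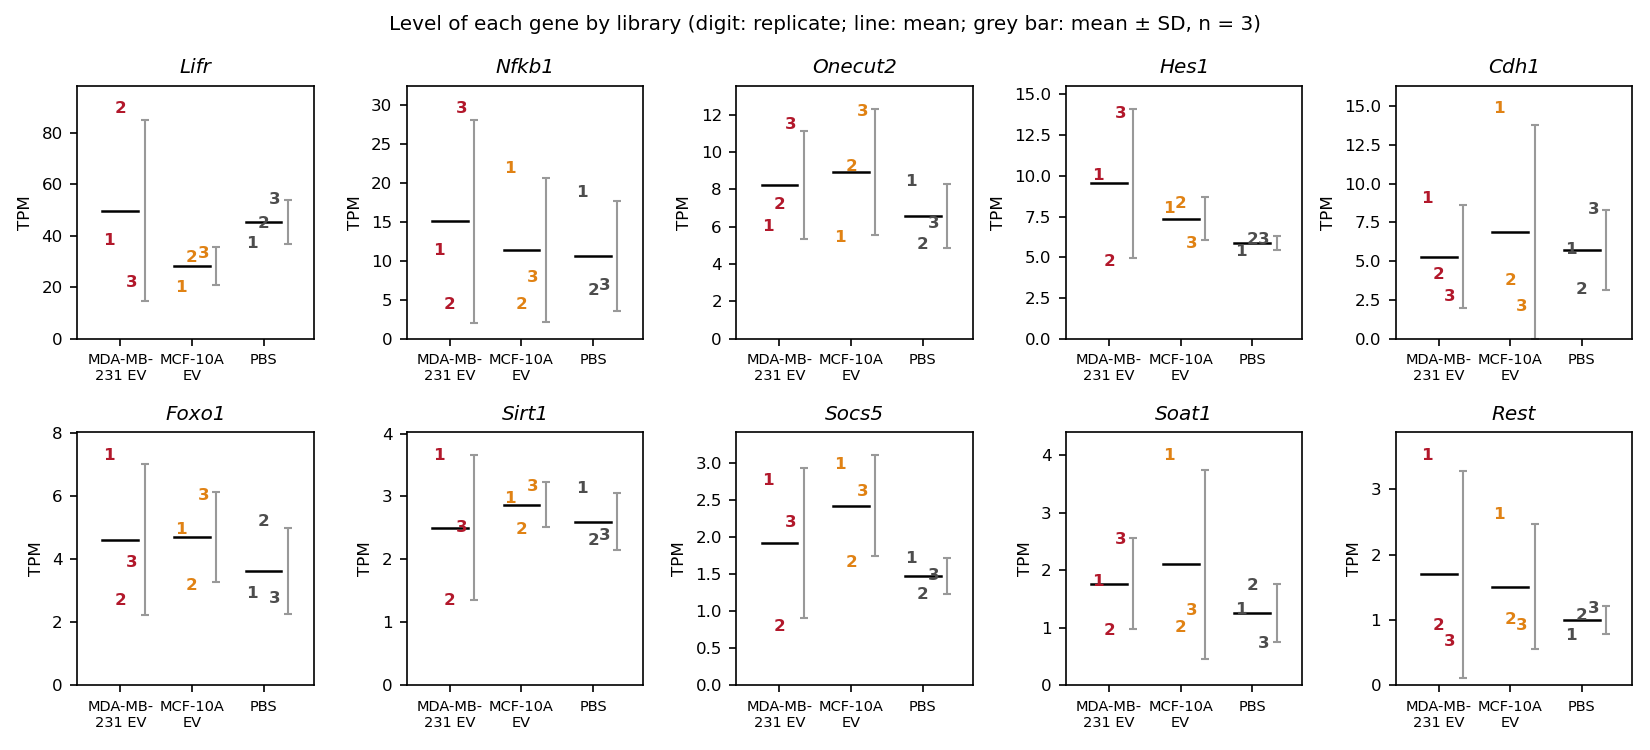
TPM of the 10 genes in each library, with digits for replicates 1 to 3, black lines for group means and grey bars for the mean ± SD (n = 3), for MDA-MB-231 EV, MCF-10A EV and PBS from left to right. Groups overlap for all 10 genes with the exception of Lifr, whose MCF-10A EV libraries (19.9 to 33.3 TPM) lie below its PBS libraries (36.9 to 54.3 TPM).

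The library with the highest and the lowest value of each group was noted for each of the 10 genes. With 3 libraries a group, genes must share such libraries, and the shares over all tested genes were not computed. MDA-MB-231 EV 2 held the lowest value of its group for 6 of the 10 (Foxo1, Sirt1, Hes1, Socs5, Nfkb1 and Soat1) and the highest for Lifr. MCF-10A EV 2 likewise held the lowest of its group for 5, namely Foxo1, Sirt1, Socs5, Nfkb1 and Soat1. MDA-MB-231 EV 1 and MCF-10A EV 1 each held the highest value of their group for 5, sharing Cdh1, Rest and Socs5. The PBS libraries held the maximum over all 9 libraries for none of the 10, and the share of all tested genes of which this holds was not computed. Of all tested genes, 69.7% were above 0 in MDA-MB-231 over PBS and 56.8% in MCF-10A over PBS. Within groups 7 of the 10 varied less than the median tested gene in log2(TPM + 1), a scale that shrinks the spread of low genes. Rest, with an SD of 0.55 against a median of 0.63, spanned 5.33-fold in MDA-MB-231 EV livers.

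**Figure D5:**
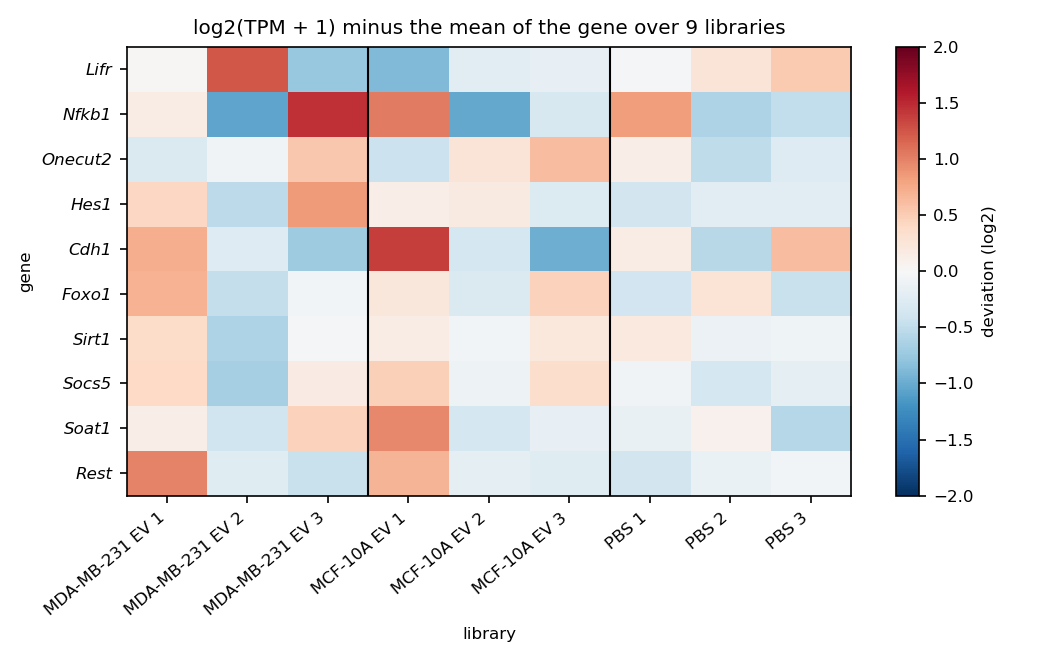
Colour gives log2(TPM + 1) of each of the 10 genes minus its mean over the 9 libraries (red above, blue below), with libraries in columns and black lines between MDA-MB-231 EV, MCF-10A EV and PBS. MDA-MB-231 EV 2 is below the mean for most genes and well above it for Lifr, and Nfkb1 is high in MDA-MB-231 EV 3, MCF-10A EV 1 and PBS 1.

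Other genes reported as miR-9 targets were listed beside these 10. Of 20 listed, 13 were tested, and 7 were above 0 in MDA-MB-231 over PBS (median 0.28, or 0.05 under quantile normalization), 8 in MDA-MB-231 over MCF-10A (median 0.15, or -0.03 under quantile normalization) and 8 in MCF-10A over PBS (median 0.16). Id2, an inhibitor of basic helix-loop-helix factors, gave 0.81 ± 0.47 in MDA-MB-231 over PBS, the apoptosis gene Bcl2l11 0.71 ± 0.55 and the transcription factor gene Ets1 0.70 ± 0.53. In that comparison 6 of the 13 were below 0. The lowest of them was at -1.08, further from 0 than Id2, the highest. The microRNA machinery had 12 tested genes, with medians of 0.16, 0.41 and -0.20 in the same order of comparisons; the first was -0.07 and the second 0.25 under quantile normalization. Tnrc6b, a silencing scaffold, gave 0.60 ± 0.61, Prkra, a partner of Dicer, 0.53 ± 0.39 and Ago1, an Argonaute, 0.38 ± 0.48 in MDA-MB-231 over PBS. The hairpin and host genes of miR-9, 5 features in all, were listed at 0 in every library. Over the 13 pathway lists 0 of 117 tested genes passed with limma in any comparison. At an unadjusted p under 0.05 there were 3 in MDA-MB-231 over PBS, 6 in MDA-MB-231 over MCF-10A and 3 in MCF-10A over PBS, beside 199, 492 and 411 of all 12860 tested genes.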

How the data were processed

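The authors deposited 1 table of TPM for the 9 libraries, which was used as deposited. Libraries were made with a TruSeq RNA kit, per the labels' protocols. HISAT2, StringTie and RSEM are named with build GRCm39 in the submitters' processing notes, without versions or roles. No source states strandedness. The 6059 assembled loci were left out, since they are at 0 in all MCF-10A EV libraries, whose TPM sum to 934986 to 979351.

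log2(TPM + 1) of Ensembl features with a mean of at least 1 TPM, 12860 in all, was fitted with limma 3.58.1 in R 4.3.3. The fit held group means over all 9 libraries and a trended prior variance, with two-sided tests and the Benjamini-Hochberg adjustment per comparison. Genes were called at an adjusted p under 0.05. A log2 change on this scale understates that of low genes. The fit was tested on simulated data. The p-values measure the spread between libraries, which may be technical.

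Members and lists were chosen with earlier results of these data known. Named are all members and, of each pathway list, up to 3 genes with the smallest p in MDA-MB-231 EV against PBS. Some genes that this rule picks are not reported here. Also named, for members of at least 5 TPM, are the 2 genes of at least 5 TPM with the closest profile. Marker lists (hepatocyte, Kupffer cell, monocyte and dendritic cell, neutrophil, lymphocyte, cholangiocyte, stellate cell, sinusoidal endothelium, pancreas and fat) are given as summed TPM. Sites were searched in 3′ UTRs of at least 50 bases, which 86.6% of tested genes have in GENCODE M21, where 52081 of 55414 identifiers were found. Alternatives covered the pseudocount, filter, scaling, weights, replicate block and libraries left out.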

Additional observations from a re-analysis of the deposited data

How the results depend on the processing

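None of the 10 genes was called under any of the 20 other settings, 9 of which leave out 1 library. The smallest limma adjusted p was 0.0911, for Onecut2 in MCF-10A over PBS with array weights. The sign of a log2 change turned in 48 of 585 values, many of which could not turn. Changing the filter, fitting only the groups compared or adding the replicate block leaves a log2 change as it was. So does leaving out a library of the group not compared. With PBS 1 and MDA-MB-231 EV 3 left out, Cdh1 was 0.204 and Lifr 0.240 in MDA-MB-231 over PBS. In MDA-MB-231 over MCF-10A Cdh1 was then 0.222, Hes1 -0.062 and Nfkb1 -0.348, and in MCF-10A over PBS Nfkb1 was 0.453. Array weights gave 0.734 for Cdh1 and 0.149 for Soat1 in MDA-MB-231 over MCF-10A, -0.090 for Rest in MCF-10A over PBS and 0.424 for Sin3a in MDA-MB-231 over PBS. Rescaling gave 0.017 for Nfkb1 in MCF-10A over PBS. Rest in MDA-MB-231 over MCF-10A was -0.043 and -0.004 with pseudocounts of 0.1 and 0.5, -0.001 after rescaling and -0.088 after quantile normalization. The causes were not tested.

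Genes called in MDA-MB-231 over PBS numbered 0, and 28 without PBS 1 and MDA-MB-231 EV 3 (0 to 24 with 1 library left out, 24 being without PBS 1). In MDA-MB-231 over MCF-10A there were 28. The count was 11 with no filter, 17 with a filter of 5 TPM, 46 with array weights, 17 with only the groups compared and 13 to 31 with 1 library left out. In MCF-10A over PBS there were 25. The count was 40 with a pseudocount of 0.1, 12 with no filter, 548 with array weights, 66 with only the groups compared, 85 without PBS 1 and MDA-MB-231 EV 3 and 14 to 59 with 1 library left out. With the replicate block the calls were 0, 15 and 20. Libraries of 1 number deviated together in 4 of 9 pairs by a correlation over 0.1 (-0.389 to 0.5). Between the 2 vesicle groups the same-numbered pairs gave 0.336, 0.110 and 0.436, and the differently numbered ones -0.337 to 0.116. The labels state no pairing, and the number was not taken as one. Whether the vesicle libraries of 1 number share a batch was not tested. The median of the genes that reached a filter of 5 TPM was 0.239 in MDA-MB-231 over MCF-10A, and that of all 10 ran from -0.256 to 0.303 with 1 library left out.

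With 1 library left out, log2 changes in MDA-MB-231 over PBS ran from -0.553 to 0.164 for Cdh1, -0.080 to 0.507 for Foxo1, -0.620 to 0.376 for Lifr, -0.360 to 0.897 for Nfkb1, -0.162 to 0.561 for Rest, -0.319 to 0.174 for Sirt1 and -0.043 to 0.492 for Socs5. Those of other genes ran from -0.097 to 0.819 for Ago1, -0.050 to 0.776 for Notch2, -0.050 to 1.078 for Ocln, -0.033 to 0.449 for Parp1, -0.010 to 0.933 for Tjp1 and -0.074 to 1.265 for Tnrc6b. In MDA-MB-231 over MCF-10A they ran from -0.592 to 0.589 for Cdh1, -0.395 to 0.193 for Foxo1, -0.062 to 0.624 for Hes1, -0.348 to 0.910 for Nfkb1, -0.374 to 0.146 for Onecut2, -0.432 to 0.310 for Rest, -0.425 to 0.067 for Sirt1, -0.338 to 0.320 for Soat1 and -0.497 to 0.039 for Socs5. In MCF-10A over PBS they ran from -0.741 to 0.440 for Cdh1, -0.584 to 0.453 for Nfkb1, -0.024 to 0.432 for Rest and -0.042 to 0.615 for Soat1. Depth is unknown, and 3 libraries a group give intervals too wide to show changes of the size seen here.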

Other observations

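Stellate cell markers held 82.3 to 291 TPM in MDA-MB-231 EV livers, 54.6 to 100 TPM in MCF-10A EV livers and 77.0 to 130 TPM in PBS livers. Sinusoidal endothelial markers held 93.6 to 198, 70.1 to 79.7 and 66.7 to 154 TPM in the same order of groups, and markers of pancreas and fat 16.4 to 55.6, 30.9 to 38.3 and 18.1 to 357 TPM. The stellate cell and sinusoidal endothelial sums were highest in MDA-MB-231 EV 1, the library with the highest of all 9 values for Foxo1, Sirt1 and Rest; their part in those levels was not tested.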
